A study of Homo sapiens with 74 samples.

Results

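SR proteins and heterogeneous nuclear ribonucleoproteins (hnRNPs) were examined as the genes whose symbol begins with SRSF followed by a number or begins with HNRNP. The rule used names only and no measured value. It found 42 of the 28131 genes listed in the count tables: 12 SRSF genes and 30 HNRNP genes. By the RefSeq annotation of GRCh38.p14, 37 of the 42 are protein coding, 4 are transcribed pseudogenes and 1 (HNRNPUL2-BSCL2, a readthrough transcript) is a long noncoding RNA.

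SR proteins carry RNA recognition motifs and a domain rich in serine and arginine, bind exonic enhancers and help to recruit the early spliceosome to splice sites. hnRNPs coat nascent transcripts and often act on splice sites in the opposite direction, and several of them also govern mRNA stability, export and translation. Many members of both families are known to regulate their own mRNA through exons that trigger nonsense-mediated decay.

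Messenger RNA was measured by sequencing of polyadenylated RNA in K562, an established human line derived from a chronic myeloid leukaemia in blast crisis, and in HEL, an established human erythroleukaemia line. The K562 groups were control cells, cells with knockout (KO) of DOT1L, the methyltransferase of histone H3 lysine 79, and cells with KO of ENL, a reader of acylated histones in the DOT1L complex that is listed under the symbol MLLT1. The HEL groups were control cells and cells with knockdown (KD) of DOT1L. Neither the number of clones behind each KO nor the control construct is given in the sources used here, and the labels do not say whether replicates were separate cultures, so the p-values measure the spread between these libraries, which may be technical.

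K562 control columns 2 and 3 differed in 0 genes and were counted as 1 sample, which left K562 with 2 control libraries and 3 of each KO, beside 2 control and 2 KD libraries of HEL. Library totals lay between 15404944 and 29236703 counts for K562 and between 12151495 and 12811688 for HEL. DOT1L fell from 263 ± 9.84 CPM (counts of a gene scaled to a common library total; SD, n = 2) to 182 ± 5.15 CPM (n = 3) in the DOT1L KO and from 92.4 ± 7.12 to 29.6 ± 0.641 CPM (n = 2 each) in the KD, and MLLT1 fell from 216 ± 3.56 (n = 2) to 154 ± 1.92 CPM (n = 3) in the ENL KO. Where the KO alleles were cut is not given in the sources used here, so the level of the targeted mRNA checks the labels only in part. All 12 erythroid and megakaryocytic markers listed were at 1 CPM or more in every library, and their summed level was 6930 to 7473 CPM in K562 controls, 10630 to 11200 with DOT1L KO and 8877 to 9101 with ENL KO. It was 8569 to 8671 CPM in HEL controls and 10760 to 11480 under KD, and 11, 8 and 8 of the 12 passed as higher in these depletions, taken in that order, and 1, 2 and 2 as lower, beside 26.9%, 18.8% and 27% of all genes higher and 24.2%, 22.2% and 28% lower. Of 16 markers of other cell types, 3 to 9 were at 0 counts in each library, and their sum was 898 to 1062 CPM in K562, mostly the keratin KRT8, and 77.1 to 93.1 CPM in HEL, mostly LYZ. Of these, 1 of 8 tested passed as higher and 5 as lower with DOT1L KO, and 2 and 3 of 8 with ENL KO. Under the HEL KD the counts were 1 and 1 of 6. The marker that passed as higher with DOT1L KO had a log2 fold change of 3.19. KRT8 was at 580 to 643 CPM with DOT1L KO, beside 684 and 694 CPM in the K562 controls. The part of these marker differences in the results was not tested, and in bulk RNA fewer cells of a type and less RNA per cell cannot be told apart. Labels of the K562 control and DOT1L KO libraries name a sequencing lane and those of the ENL KO name none, so a batch difference cannot be told apart from loss of ENL.

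Low counts removed 10 of the 42 genes from the K562 test and 9 from the HEL test. The 9 genes tested in neither line were HNRNPCL1, HNRNPCL2, HNRNPCL3, HNRNPCL4, SRSF12, HNRNPH2, HNRNPA1P33, HNRNPKP3 and HNRNPUL2-BSCL2, and none of them had more than 3 counts in any library. HNRNPH2 shared 92.2% of its exonic bases with the readthrough gene RPL36A-HNRNPH2, so its low count says little about its expression. HNRNPA3P1, a pseudogene of HNRNPA3, was tested in HEL alone, where it had 15 and 19 counts in the controls against 24 and 13 in the KD. Counts of HNRNPA1L2, HNRNPA1P10, HNRNPA3P1 and SRSF8, which are close copies of other members, and of HNRNPUL2 (46.5% of exonic bases shared with the readthrough transcript) and SRSF9 (42.6% shared with GATC on the opposite strand) are uncertain, because the way the authors' counting split such reads is not given in the sources used here. In the printed CPM values, a count of 3, the upper limit that 0 counts allow, was worth 0.103 to 0.247 CPM depending on the library, and this covers counting error only.

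In the DOT1L KO, 4 of 32 tested genes had an adjusted p under 0.05 (edgeR, quasi-likelihood fit, with p-values adjusted over all genes after Benjamini-Hochberg; written as the edgeR adjusted p), beside 51.1% of all 14301 genes tested. SRSF8 and SRSF6 were higher and HNRNPLL and HNRNPA3 lower. In the ENL KO, 7 of 32 passed, beside 41% of all genes: SRSF8, SRSF3, HNRNPM and SRSF6 were higher and HNRNPD, HNRNPLL and HNRNPDL lower. These K562 comparisons share their control libraries. In HEL, 16 of 33 passed, beside 55% of all genes, with 9 higher and 7 lower. The fitted variation between libraries of a group was 1.83% in HEL and 6.34% in K562. Counts of the 2 lines are therefore not of equal precision. The K562 counts moved with single libraries. The DOT1L KO count was 8 without DOT1L KO 1, beside 48% of all genes. The ENL KO count was 2 without ENL KO 2, beside 34.9%, and 3 without ENL KO 3, beside 39.2%. Both counts also moved when a control was left out, which leaves a lone control library. The K562 libraries numbered 1 stood apart for many of these genes, being highest of their group in all 3 groups for 22 of the 32, and without them the counts were 7 (DOT1L KO, beside 43% of all genes) and 3 (ENL KO, beside 31.6%).

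Sizes were modest. Among the tested members the median absolute log2 fold change was 0.12 in the DOT1L KO, 0.064 in the ENL KO and 0.102 in the HEL KD, beside 0.291, 0.252 and 0.245 over all genes tested. The signed medians were −0.029, 0.014 and 0.029, beside 0.011, 0.003 and 0.013 over all genes. None of the 32 or 33 genes changed by 1 or more on the log2 scale in these comparisons. Of all genes tested, 15.8%, 11% and 5.84% passed with such a change, taken in the same order. Among K562 genes of at least 50 CPM, 50.9% passed with DOT1L KO and 43.3% with ENL KO, beside 4 of 29 and 7 of 29 members at that level. The median standard error there was 0.0653 for all such genes and 0.0639 for the members with DOT1L KO, and 0.0657 and 0.0641 with ENL KO. Other cuts of abundance were not tried. In HEL, 71.4% of genes of at least 50 CPM passed, beside 16 of 29 members. The median standard error in HEL was smaller, at 0.0463 for all such genes and 0.0349 for the members.

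Counts of genes whose 2 groups of libraries did not overlap gave a similar order. In the DOT1L KO the groups did not overlap for 9 of 32 members, beside 68.1% of all genes tested, and in the ENL KO for 9 of 32, beside 59.6%. In the HEL KD they did not overlap for 23 of 33 members, beside 75.9%.

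**Figure D1:**
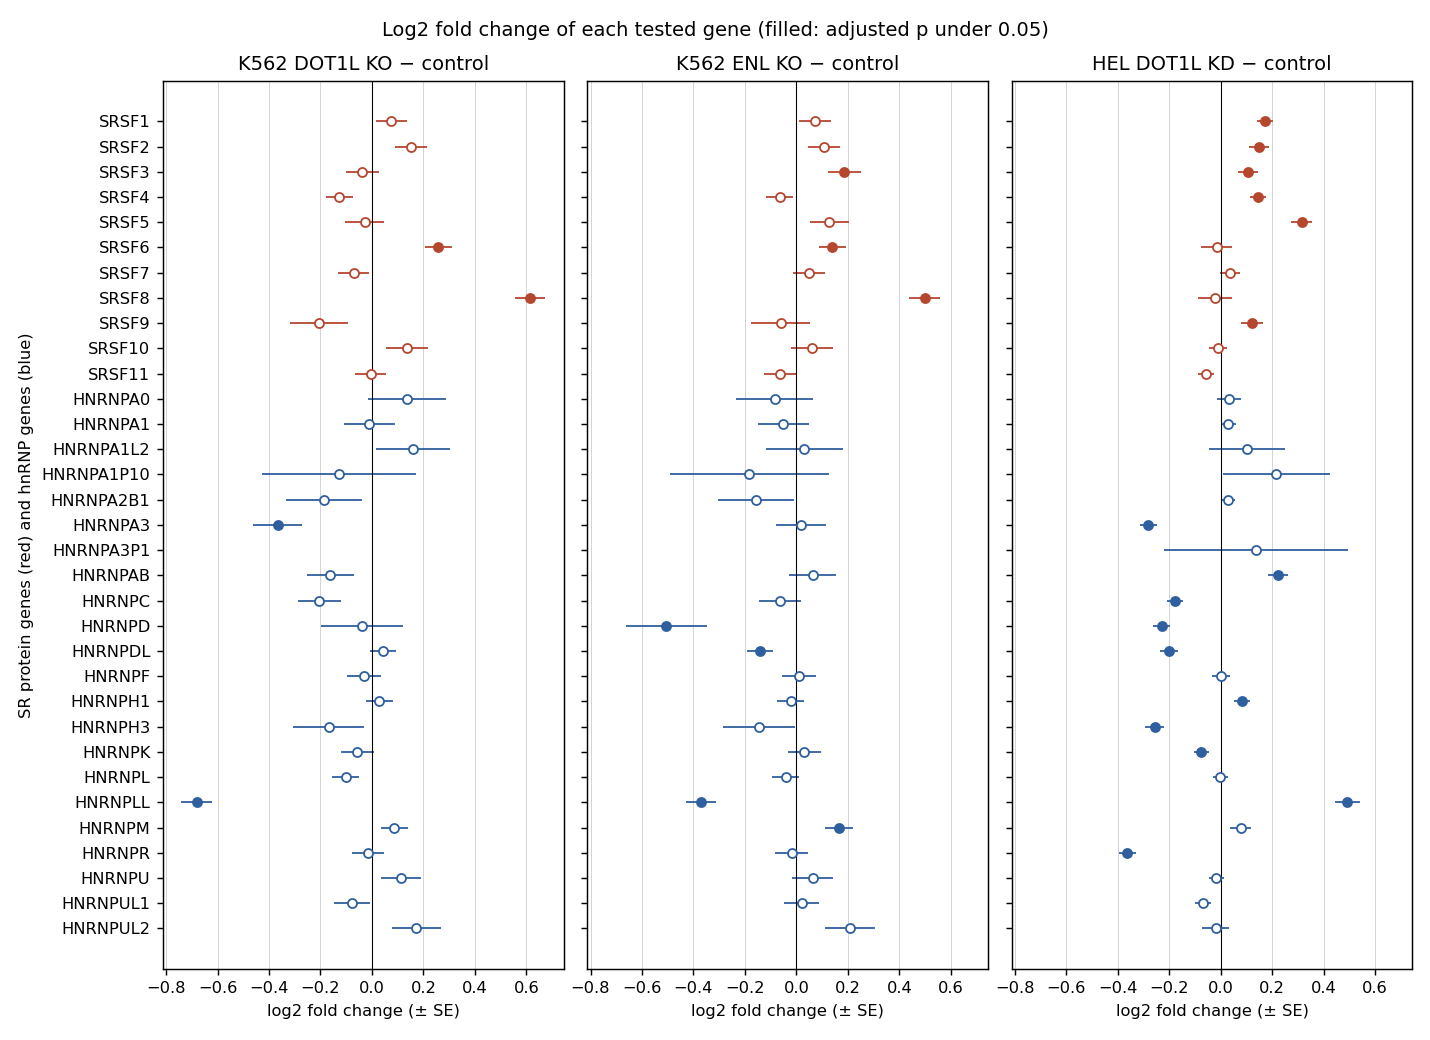
Log2 fold change with its standard error (x axis) for each tested SR protein gene (red) and hnRNP gene (blue) in the K562 DOT1L KO, the K562 ENL KO and the HEL DOT1L KD against their controls, with filled points for an edgeR adjusted p under 0.05. The filled points number 4, 7 and 16 from left to right, and HNRNPLL lies at −0.68 and −0.37 in K562 and at 0.49 in HEL.

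HNRNPLL (hnRNP L-like; chromosome 2, 38563186 to 38603036, minus strand, GRCh38), a paralogue of HNRNPL known for regulating alternative exons of the CD45 gene in lymphocytes, had the largest absolute fold change of the tested members in the DOT1L KO and in the HEL KD. In the ENL KO, HNRNPD and SRSF8 changed more. Its level was 90.8 and 89.4 CPM in the K562 controls, 54.2, 57.4 and 56.9 with DOT1L KO and 68.8, 72.4 and 67.7 with ENL KO. Every KO library lay below both controls, and every DOT1L KO library lay below every ENL KO library. The log2 fold change was −0.68 ± 0.0594 (SE) in the DOT1L KO (edgeR adjusted p = 5.38e-07) and −0.37 ± 0.0597 in the ENL KO (edgeR adjusted p = 0.000229), and −0.31 ± 0.0546 for the DOT1L KO against the ENL KO libraries (edgeR adjusted p = 0.000243). In HEL the direction was opposite: HNRNPLL stood at 77.1 and 80.6 CPM in the controls and at 109 and 113 in the KD. Both KD libraries lay above both controls, with a log2 fold change of 0.49 ± 0.0479 (edgeR adjusted p = 8.69e-13). The response in HEL minus that in K562 was 1.19 ± 0.0822 (edgeR adjusted p for the interaction of line and DOT1L depletion = 2.27e-10). Leaving out any 1 library kept each of these calls.

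Its paralogue HNRNPL, an abundant CA-repeat binding repressor and activator of exons, passed in none of the 3 comparisons with a control (log2 fold changes −0.10, −0.04 and −0.00). The level of HNRNPL per kilobase of exon was therefore 9.69 ± 0.0757 (SD, n = 2) times that of HNRNPLL in K562 controls, 14.5 ± 0.962 (n = 3) times in the DOT1L KO and 12.2 ± 0.539 (n = 3) times in the ENL KO. In HEL the same ratio went from 8.9 ± 0.259 to 6.32 ± 0.238 (n = 2 each).

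SRSF8 (chromosome 11, 95066877 to 95071224, plus strand, GRCh38), an intron-poor relative of SRSF2, rose most in K562. It was at 69.1 and 68.2 CPM in the controls, 104, 111 and 101 with DOT1L KO and 96.7, 98.6 and 95.6 with ENL KO. No KO library overlapped the controls. The log2 fold change was 0.61 ± 0.0595 in the DOT1L KO (edgeR adjusted p = 1.52e-06) and 0.50 ± 0.0599 with ENL KO (edgeR adjusted p = 1.8e-05). In HEL the values were 44.9 and 44.2 CPM in the controls against 44.1 and 43.5 in the KD, with a log2 fold change of −0.02 ± 0.066 (edgeR adjusted p = 0.786), and the lines' responses differed by −0.62 ± 0.0924 (edgeR adjusted p for the interaction = 1.46e-05). SRSF2, an SR protein that activates exons through enhancers of mixed G and C sequence, had log2 fold changes of 0.15 and 0.11 in the K562 KOs that did not pass. The value in the DOT1L KO lay near the threshold (edgeR adjusted p = 0.0561). SRSF2 passed as higher there under other scalings of the libraries (RLE, upper quartile, library size alone).

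The sequences upstream of HNRNPLL and SRSF8, the members with the largest fall and rise in K562, and of HNRNPD and HNRNPDL, neighbouring paralogues that were both lower in the ENL KO and in the HEL KD, are shown from the RefSeq promoter table (GRCh38.p14), 5′ to 3′ on the gene's strand, ending at the base before the gene's first listed base. HNRNPLL covers chr2:38603037-38603178 (minus strand), SRSF8 chr11:95066627-95066876 (plus), HNRNPD chr4:82373997-82374241 (minus) and HNRNPDL chr4:82430226-82430475 (minus). Capitals mark matches on either strand to TATAAA, called the TATA box, to CCAAT, to GGGCGG, called the GC box, and to CGGAAG, the core of ETS-family motifs.
HNRNPLL: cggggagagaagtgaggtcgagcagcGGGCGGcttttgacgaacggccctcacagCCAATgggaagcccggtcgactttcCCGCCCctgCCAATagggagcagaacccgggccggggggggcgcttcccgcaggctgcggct
SRSF8: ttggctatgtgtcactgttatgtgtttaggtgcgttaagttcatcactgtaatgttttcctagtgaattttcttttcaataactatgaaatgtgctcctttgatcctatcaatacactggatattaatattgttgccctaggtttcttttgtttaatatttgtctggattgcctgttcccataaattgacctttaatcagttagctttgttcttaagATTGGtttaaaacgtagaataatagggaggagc
HNRNPD: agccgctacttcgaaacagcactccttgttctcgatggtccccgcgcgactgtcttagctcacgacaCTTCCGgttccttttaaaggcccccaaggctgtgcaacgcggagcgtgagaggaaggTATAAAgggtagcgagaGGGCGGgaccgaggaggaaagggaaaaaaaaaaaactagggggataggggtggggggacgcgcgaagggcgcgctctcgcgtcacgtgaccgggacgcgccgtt
HNRNPDL: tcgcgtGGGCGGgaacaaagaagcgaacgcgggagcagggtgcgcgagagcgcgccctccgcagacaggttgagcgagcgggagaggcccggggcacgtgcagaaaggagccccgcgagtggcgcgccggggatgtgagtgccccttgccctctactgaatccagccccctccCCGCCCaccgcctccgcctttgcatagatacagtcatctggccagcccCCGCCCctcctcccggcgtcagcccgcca

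The printed HNRNPLL stretch held 2 GC boxes and 2 CCAAT boxes and was 69.7% G or C. That of SRSF8 held 1 CCAAT box, read on the opposite strand, no GC box, and was 33.6% G or C. HNRNPD held 1 TATA box, 1 GC box and 1 ETS core, and HNRNPDL held 3 GC boxes and none of the other motifs. RefSeq promoters (250 bases before to 50 after the gene start) were found for 35 of the 42 genes, 29 of them tested. Among those 29, the GC box occurred in 65.5%, CCAAT in 48.3%, the ETS core in 44.8% and TATAAA in 17.2%, beside 44.6%, 35.7%, 19.9% and 12% of all 27305 promoters. The median G and C content was 64.0% for the 29 and 58.3% for all promoters. The 29 belong to genes that passed the count filter, while the 27305 were not chosen by expression, so the 2 sets are not alike. These are matches of letters, and no binding was measured here.

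Besides SRSF8, SRSF6 passed in both K562 KOs and SRSF3 in the ENL KO. The other 8 tested SR proteins passed in neither under the main scaling (TMM). SRSF6, which binds purine-rich enhancers, was at 196 and 202 CPM in K562 controls, 234, 238 and 241 with DOT1L KO and 217, 214 and 226 with ENL KO. All KO libraries were above both controls. The log2 fold change was 0.26 ± 0.0519 in the DOT1L KO (edgeR adjusted p = 0.000948) and 0.14 ± 0.052 in the ENL KO (edgeR adjusted p = 0.0462). The second value passed narrowly, and leaving out any 1 of the 8 libraries ended that call, with log2 fold changes between 0.12 and 0.16. In HEL, SRSF6 was at 55.4 and 54.9 CPM in the controls against 54.6 and 54.5 in the KD. The HEL groups lay within 1 CPM of each other, with a log2 fold change of −0.02 (edgeR adjusted p = 0.834), and the difference between the lines was −0.26 ± 0.0787 (edgeR adjusted p for the interaction = 0.0129). Its adjusted p was 0.0692 without K562 control 1, 0.0612 without HEL control 1, 0.0527 without KD library 1 and 0.0551 without KD library 2.

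SRSF3, the smallest SR protein, which also takes part in mRNA export, stood at 410 and 441 CPM in K562 controls, 397, 441 and 406 with DOT1L KO and 465, 475 and 513 with ENL KO. Only the ENL KO libraries lay above all controls. Their log2 fold change was 0.19 ± 0.0636 (edgeR adjusted p = 0.0313). It was 0.13 (edgeR adjusted p = 0.254) without control 1, 0.19 (0.0629) without ENL KO 2 and 0.14 (0.0863) without ENL KO 3. The DOT1L KO was lower than the ENL KO by −0.22 ± 0.0567 on the log2 scale (edgeR adjusted p = 0.00378).

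In HEL, of 11 SR proteins tested, 6 were higher in the KD (SRSF1, SRSF2, SRSF3, SRSF4, SRSF5 and SRSF9) and 0 lower, beside 27% higher and 28% lower among all genes tested. At an unadjusted p under 0.05 the count was also 6. SRSF6, SRSF8, SRSF10 and SRSF11 had fold changes below 0 that did not pass (log2 −0.02, −0.02, −0.01 and −0.06), and SRSF7 one of 0.04. The SR family had no lower call under 3 other scalings of the libraries (RLE, upper quartile, library size alone), with 6, 7 and 6 higher, and the number of positive fold changes among the 11 was 7, 7, 11 and 10 under TMM and these scalings in turn. In K562 the SR family had 2 higher and 0 lower of 11 in the DOT1L KO and 3 higher and 0 lower in the ENL KO, beside 26.9% and 18.8% of all genes higher. Median log2 fold changes of the 11 SR genes were −0.005, 0.073 and 0.105 in the DOT1L KO, ENL KO and HEL KD comparisons.

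SRSF5 rose most among these in HEL. It was at 114 and 116 CPM in the controls against 145 and 141 in the KD, a log2 fold change of 0.31 ± 0.0426 (edgeR adjusted p = 1.21e-08). The KD libraries were clear of both controls. SRSF5 stood at 127 and 117 CPM in K562 controls and at 122, 118 and 120 in the DOT1L KO, which overlapped, and the difference of responses was 0.36 ± 0.0789 (edgeR adjusted p for the interaction = 0.000944). Reads of SRSF5 could be shared with LOC100289511, which covers 17.5% of its exonic bases on the other strand.

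SRSF1, the founding SR protein, rose from 366 and 370 CPM to 408 and 420 in HEL, without overlap (log2 fold change 0.17 ± 0.0311, edgeR adjusted p = 6.06e-06). SRSF2 went from 192 and 200 to 212 and 223 CPM (log2 fold change 0.15 ± 0.0372, edgeR adjusted p = 0.000653), and without KD library 2 its adjusted p was 0.0501. SRSF4, a larger SR protein close to SRSF6, was at 420 and 409 CPM in HEL controls and 460 and 455 in the KD (log2 fold change 0.14 ± 0.0304, edgeR adjusted p = 6.63e-05). In K562, SRSF4 was at 167 and 167 CPM in the controls and 156, 152 and 151 in the DOT1L KO, a lower level that did not pass (log2 fold change −0.13, edgeR adjusted p = 0.0588). The responses of SRSF4 differed between the lines by 0.29 ± 0.0671 (edgeR adjusted p for the interaction = 0.0016).

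**Figure D2:**
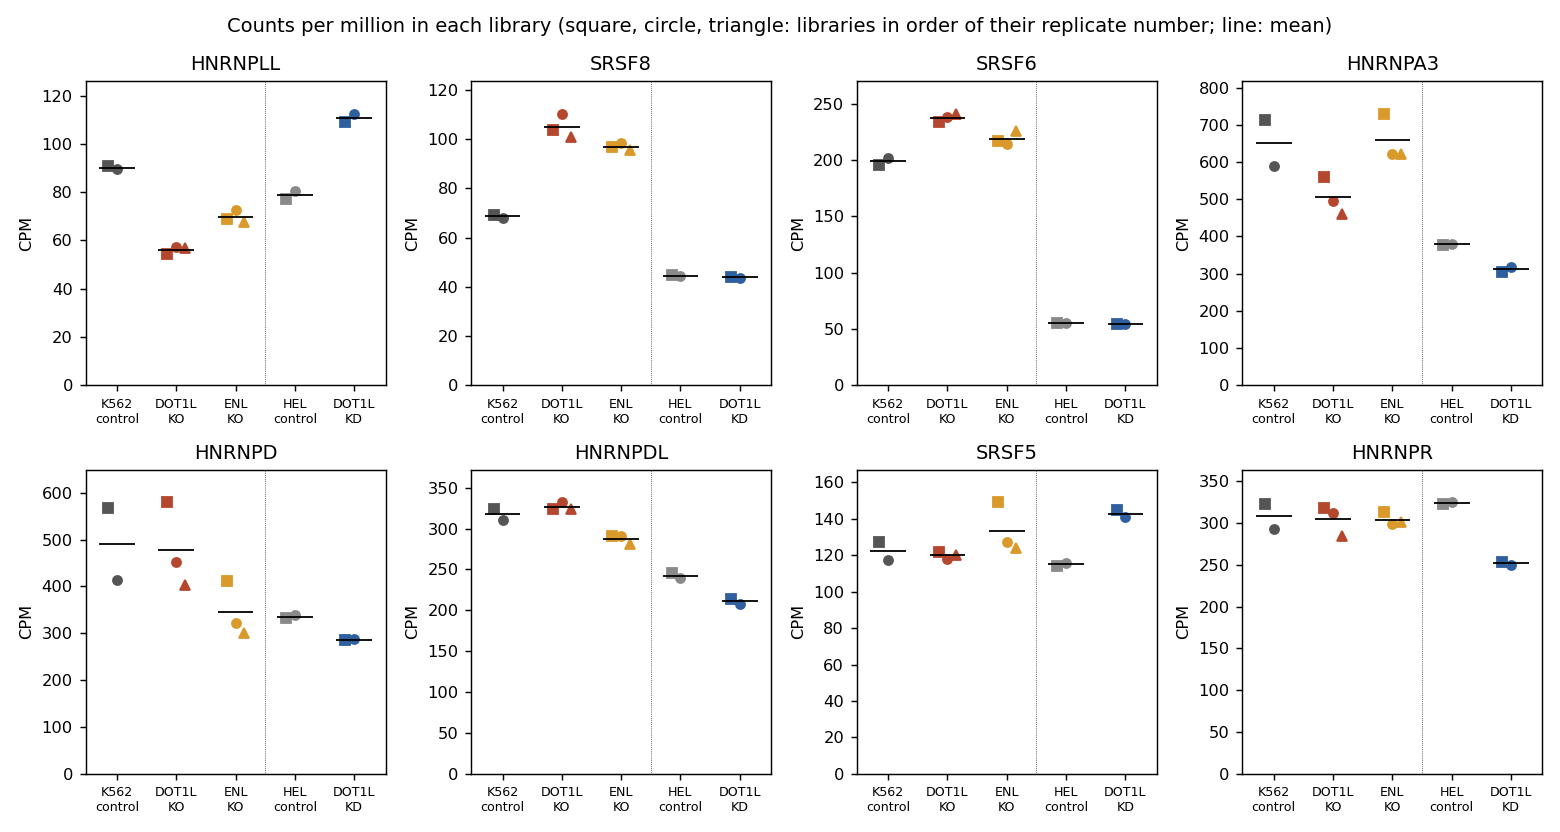
CPM (y axis, from 0) in each library of the 5 groups (x axis) for HNRNPLL, SRSF8, SRSF6, HNRNPA3, HNRNPD, HNRNPDL, SRSF5 and HNRNPR, with symbols for the replicate number and a line at the group mean. HNRNPLL falls in both K562 KOs and rises in the HEL KD, and the squares of HNRNPD and HNRNPA3, the K562 libraries numbered 1, lie above the other libraries of each K562 group.

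Of 21 hnRNP genes tested in K562, 0 were higher and 2 lower with DOT1L KO, beside 26.9% and 24.2% of all genes, and 1 was higher and 3 lower with ENL KO, beside 18.8% and 22.2%. Of 22 tested in HEL, 3 were higher and 7 lower in the KD, beside 27% and 28%. Median log2 fold changes of the hnRNP genes were −0.038, −0.022 and −0.001 in this order. The HEL split depended on scaling: 7 were higher and 6 lower with upper-quartile factors, and 6 and 6 with library size alone. Over both families in HEL that is 14 higher and 6 lower with upper-quartile factors and 12 and 6 with library size alone, in place of 9 and 7, while upper-quartile factors moved the median of all genes by 0.0734 on the log2 scale. In K562, the same count over both families was 4 higher and 2 lower in the DOT1L KO with library size alone, in place of 2 and 2, and 2 higher and 3 lower in the ENL KO with upper-quartile factors, in place of 4 and 3.

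In the A/B group, abundant proteins that bind exonic silencers and export signals, HNRNPA3 changed most. Its level was 712 and 589 CPM in K562 controls, 560, 495 and 460 with DOT1L KO and 731, 622 and 623 with ENL KO. The DOT1L KO libraries lay below both other groups, although the higher of them came close to control 2. The log2 fold change was −0.37 ± 0.096 against the controls (edgeR adjusted p = 0.00593) and −0.38 ± 0.0866 against the ENL KO (edgeR adjusted p = 0.00172). Without control 1 the first value was −0.23 with an edgeR adjusted p of 0.124. In HEL, HNRNPA3 fell from 378 and 379 CPM to 304 and 319 (log2 fold change −0.28 ± 0.0323, edgeR adjusted p = 1.24e-10).

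HNRNPAB, a related protein that binds AU-rich and transport signals, rose in HEL from 164 and 166 to 189 and 197 CPM (log2 fold change 0.22 ± 0.0382, edgeR adjusted p = 1.94e-06). In K562 it was at 424 and 368 CPM in the controls and at 373, 356 and 333 in the DOT1L KO, overlapping groups with a log2 fold change of −0.16. Responses differed by 0.40 ± 0.0898 (edgeR adjusted p for the interaction = 0.00107). HNRNPAB was also lower in the DOT1L KO than in the ENL KO by −0.22 (edgeR adjusted p = 0.0302), a call that 4 of 8 left-out libraries ended (DOT1L KO 2 or 3, ENL KO 1 or 2, with log2 fold changes from −0.14 to −0.23) and that did not pass with upper-quartile factors (adjusted p = 0.0876) or library size alone (0.0785). HNRNPA1 and HNRNPA2B1, the most abundant members per kilobase of exon, and HNRNPA0 passed in none of the 3 comparisons with a control, with log2 fold changes between −0.19 and 0.14.

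HNRNPD (AUF1) and HNRNPDL, paralogues that bind AU-rich elements and influence mRNA decay, lie 48567 bases apart on chromosome 4 (HNRNPD 82353314 to 82373996, HNRNPDL 82422564 to 82430225, both minus strand, GRCh38), with 0 listed genes entirely between them. HNRNPD was at 568 and 414 CPM in K562 controls, 580, 452 and 403 with DOT1L KO and 412, 323 and 301 with ENL KO. The ENL KO libraries lay below both controls, by a narrow margin for ENL KO 1, and the DOT1L KO overlapped the controls. The log2 fold change was −0.51 ± 0.158 in the ENL KO (edgeR adjusted p = 0.0201) and −0.04 ± 0.158 in the DOT1L KO, which was 0.47 ± 0.142 above the ENL KO (edgeR adjusted p = 0.0119).

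The ENL call of HNRNPD rested on several libraries. It was −0.26 (edgeR adjusted p = 0.315) without control 1, −0.46 (0.0669) without ENL KO 2 and −0.42 (0.0651) without ENL KO 3, and DESeq2 gave an adjusted p of 0.104. The difference between the KOs had an adjusted p of 0.0525 without ENL KO 2 and 0.0684 with DESeq2. In HEL, HNRNPD fell from 333 and 339 CPM to 286 and 287, with no overlap (log2 fold change −0.23 ± 0.0323, edgeR adjusted p = 2.85e-08).

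HNRNPDL was at 324 and 311 CPM in K562 controls, 324, 332 and 325 with DOT1L KO and 292, 290 and 281 with ENL KO. Only the ENL KO lay below the controls, by −0.14 ± 0.0496 on the log2 scale (edgeR adjusted p = 0.0357), and the DOT1L KO was 0.18 ± 0.0445 above the ENL KO (edgeR adjusted p = 0.0027). Leaving out 1 library ended the first call in 5 of 8 cases (control 1, control 2, DOT1L KO 1, ENL KO 2 or ENL KO 3), with log2 fold changes from −0.17 to −0.11. In HEL it fell from 246 and 239 CPM to 214 and 208 (log2 fold change −0.20 ± 0.0356, edgeR adjusted p = 3.5e-06). The lines' responses to DOT1L depletion differed by −0.23 ± 0.0695 (edgeR adjusted p for the interaction = 0.0127), which rose above 0.05 without control 2 of K562, HEL control 1 or KD library 2 (0.0646, 0.0807 and 0.0799).

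HNRNPR, known for roles in neuronal RNA transport, was at 323 and 293 CPM in K562 controls and 318, 312 and 285 in the DOT1L KO, which overlapped (log2 fold change −0.01). In HEL it fell most of all members, from 323 and 325 CPM to 254 and 250, a log2 fold change of −0.36 ± 0.033 (edgeR adjusted p = 9.21e-14). Both KD libraries lay far below the controls, and the responses differed between the lines by −0.33 ± 0.0815 (edgeR adjusted p for the interaction = 0.00263). HNRNPC, which binds uridine tracts and masks cryptic exons, was lower in the HEL KD by −0.18 ± 0.0301 (edgeR adjusted p = 1.62e-06) and did not pass with DOT1L KO (−0.20 ± 0.0826, edgeR adjusted p = 0.0537). HNRNPM, a regulator of exon skipping, was at 502 and 485 CPM in K562 controls and 572, 561.9 and 527 in the ENL KO, which lay above both (log2 fold change 0.17 ± 0.053, edgeR adjusted p = 0.0229). That call ended in 4 of 8 left-out libraries (control 1, control 2, ENL KO 1 or ENL KO 2; log2 fold changes 0.14 to 0.19) and with upper-quartile factors (adjusted p = 0.0643).

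Of the F/H group, which binds runs of guanine, HNRNPH3 fell in HEL from 243 and 250 CPM to 199 and 214 (log2 fold change −0.26 ± 0.037, edgeR adjusted p = 5.13e-08). HNRNPH1 was slightly higher there (log2 fold change 0.08 ± 0.0313, edgeR adjusted p = 0.0213), and HNRNPF did not pass in any of these comparisons. HNRNPK, which binds cytosine-rich sequence, was lower in the HEL KD by −0.08 ± 0.029 (edgeR adjusted p = 0.023). The direction of HNRNPH1 was kept in every scaling, and HNRNPK no longer passed with upper-quartile factors or library size alone. HNRNPU, a nuclear scaffold protein, and its relatives HNRNPUL1 and HNRNPUL2 passed in none of the 3 comparisons with a control, with log2 fold changes between −0.08 and 0.21.

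The direct comparison of the KOs does not use the controls in its difference. There, 7 of 32 members passed, beside 60.2% of all genes tested. HNRNPD, HNRNPDL and SRSF6 were higher in the DOT1L KO, and HNRNPA3, HNRNPLL, SRSF3 and HNRNPAB were higher in the ENL KO. SRSF6 differed by 0.12 ± 0.0462 (edgeR adjusted p = 0.0391), and 7 of 8 left-out libraries, all but ENL KO 3, ended that call, with log2 fold changes from 0.10 to 0.13. Among genes of at least 50 CPM the share was 60.6%. Without ENL KO 2 the members' count was 4, beside 53.7% of all genes. With the replicate number as a block it was 16, beside 67.2%. In this comparison 8 of 32 members had groups that did not overlap, beside 63.3% of all genes.

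Response to DOT1L depletion was compared between the lines in a joint fit of 9 libraries. That fit shared an estimate of the variation (4.88%) between lines whose own fits gave 6.34% (K562) and 1.83% (HEL). Its standard errors and p-values therefore do not follow the spread of each line. The interaction passed for 8 of 33 members, beside 38.9% of all 15367 genes tested: HNRNPLL, HNRNPAB, SRSF5 and SRSF4 responded more positively in HEL (4 members, beside 19.8% of all genes), and SRSF8, HNRNPR, SRSF6 and HNRNPDL more positively in K562 (4 members, beside 19.1%). Among genes of at least 50 CPM the interaction passed for 53.8%, beside 8 of 30 members. HNRNPLL alone among these passed in opposite directions in the 2 lines. The line goes together with KO against KD, with fragment against read counts and with any batch difference, and these cannot be told apart.

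Levels of the families differed between the lines far more than between depleted and control cells. In the controls, 27 of 33 members differed between HEL and K562 in edgeR's test, 7 higher and 20 lower in HEL, beside 85.6% of all genes called, 41.3% higher and 44.2% lower. At 50 CPM or more, 90.5% of all genes and 26 of 30 members passed. Groups of control libraries did not overlap for 29 of 33 members, beside 92.7% of all genes. The median log2 difference of the members was −0.303 and that of all genes tested −0.093. In absolute size the members differed less, with a median of 0.517 beside 1.301 for all genes. A log2 difference of at least 1 passed for 11 of 33 members, beside 57.2% of all genes. One of the 7 higher calls was the pseudogene HNRNPA3P1, which had 0 and 1 counts in K562 controls, and for which no fold is given.

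Summed per kilobase of exon, the hnRNP genes came to 3763 and 3269 CPM per kb in K562 controls and 2315 and 2345 in HEL controls. Those of the SR proteins came to 855 and 823 in K562 and 735 and 731 in HEL. Both sums were lower in HEL, in each case without overlap. These levels were scaled in the separate fit of each line, from fragments in K562 and reads in HEL, so the lines are not on a shared scale. HNRNPA1, the prototype hnRNP that packages nascent RNA and represses exons, had the highest level per kb in all 5 groups, at 712 CPM per kb in K562 controls and 352 in HEL controls on average. HNRNPA2B1 came next in both, at 370.5 and 319 CPM per kb, and did not overlap its neighbours in the order. HNRNPL and HNRNPC, ranked next in K562 at 287.5 and 282 CPM per kb, overlapped. SRSF9 was the highest SR protein in K562 controls at 154 CPM per kb and overlapped SRSF2 at 146, whereas SRSF4 was the highest in HEL at 180 CPM per kb. In CPM without division by length, HNRNPA1 was at 756 in HEL controls, below HNRNPA2B1 at 1180.5 and HNRNPK at 802. It was also below HNRNPA2B1 in the HEL KD, at 771 beside 1204.8 CPM.

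**Figure D3:**
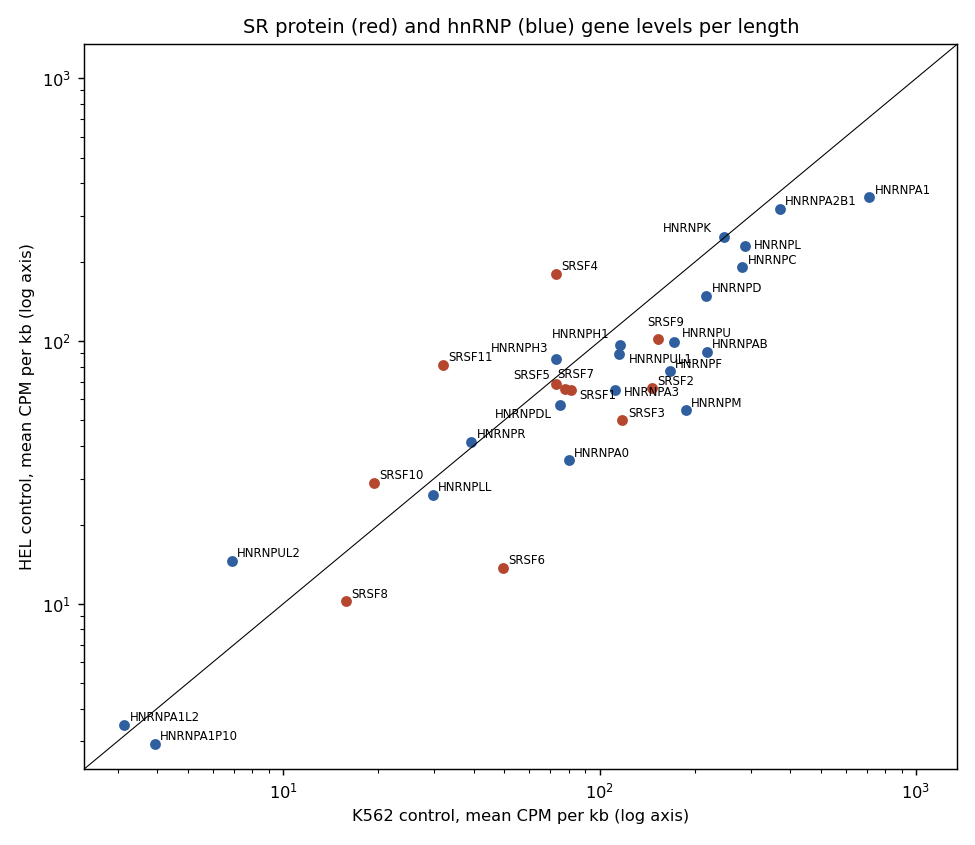
Mean level of each SR protein gene (red) and hnRNP gene (blue) in CPM per kb of exon in K562 controls (x axis, log scale, 2 libraries) and HEL controls (y axis, log scale, 2 libraries), with the line of equal levels, for the 32 genes tested in both lines. SRSF4, SRSF11, SRSF10 and HNRNPUL2 lie above the line and SRSF6, HNRNPM and HNRNPAB far below it. Levels of each line were scaled in its own fit.

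The make-up of the SR family thus differed between the lines. On the scale of the joint fit, SRSF6 was at 193 and 198 CPM in K562 controls and 57.3 and 56.5 in HEL controls (log2 difference −1.78 ± 0.0575, edgeR adjusted p = 1.9e-17). SRSF4 was at 164 and 164 CPM in K562 and 434 and 420 in HEL (log2 difference 1.38 ± 0.0504, edgeR adjusted p = 1.55e-16). For SRSF11, which binds near branch sites and interacts with other SR proteins, the values were 164 and 171 against 446 and 447 (log2 difference 1.41 ± 0.054, edgeR adjusted p = 3.57e-16). The lines were far apart in each case. Per kilobase, SRSF4 exceeded SRSF6 1.47 ± 0.0285 times in K562 controls and 13.1 ± 0.164 times in HEL controls (SD, n = 2 each). SRSF4 made up 8.66% of the summed SR level in K562 controls and 24.6% in HEL controls, and SRSF6 5.91% and 1.88%.

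Other large differences were lower levels in HEL of HNRNPM (log2 difference −1.71), HNRNPAB (−1.19), SRSF3 (−1.17), HNRNPA0 (−1.11), SRSF2 (−1.08) and HNRNPF (−1.05), each past the threshold. HNRNPUL2 (1.15) and SRSF10 (0.65), an SR protein that represses splicing when dephosphorylated, were higher in HEL. HNRNPA2B1, HNRNPK, HNRNPLL, SRSF5, HNRNPA1L2 and HNRNPA1P10 did not pass, with log2 differences between −0.35 and 0.21. Reads and fragments were counted in separate tables, so cell line, counting and any batch difference cannot be told apart here.

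The hnRNP genes also differed among replicates of K562. The library numbered 1 was the highest of its group in all 3 K562 groups for 18 of the 21 tested hnRNP genes (85.7%) and for 4 of 11 SR proteins (36.4%), beside 15.6% of all genes tested. For HNRNPA2B1, library 1 exceeded the mean of the others by 0.495, 0.346 and 0.381 on the log2 scale in the control, DOT1L KO and ENL KO groups. HNRNPD showed 0.455, 0.442 and 0.403, HNRNPA0 showed 0.412, 0.364 and 0.418, and HNRNPH3 showed 0.379, 0.367 and 0.386. By contrast HNRNPLL showed 0.021, −0.077 and −0.025. The summed hnRNP level per kb was 3671, 3319 and 3077 CPM per kb with DOT1L KO and 3737, 3286 and 3152 with ENL KO, so the spread within a group was wider than the gap between group means. What sets these libraries apart was not tested.

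**Figure D4:**
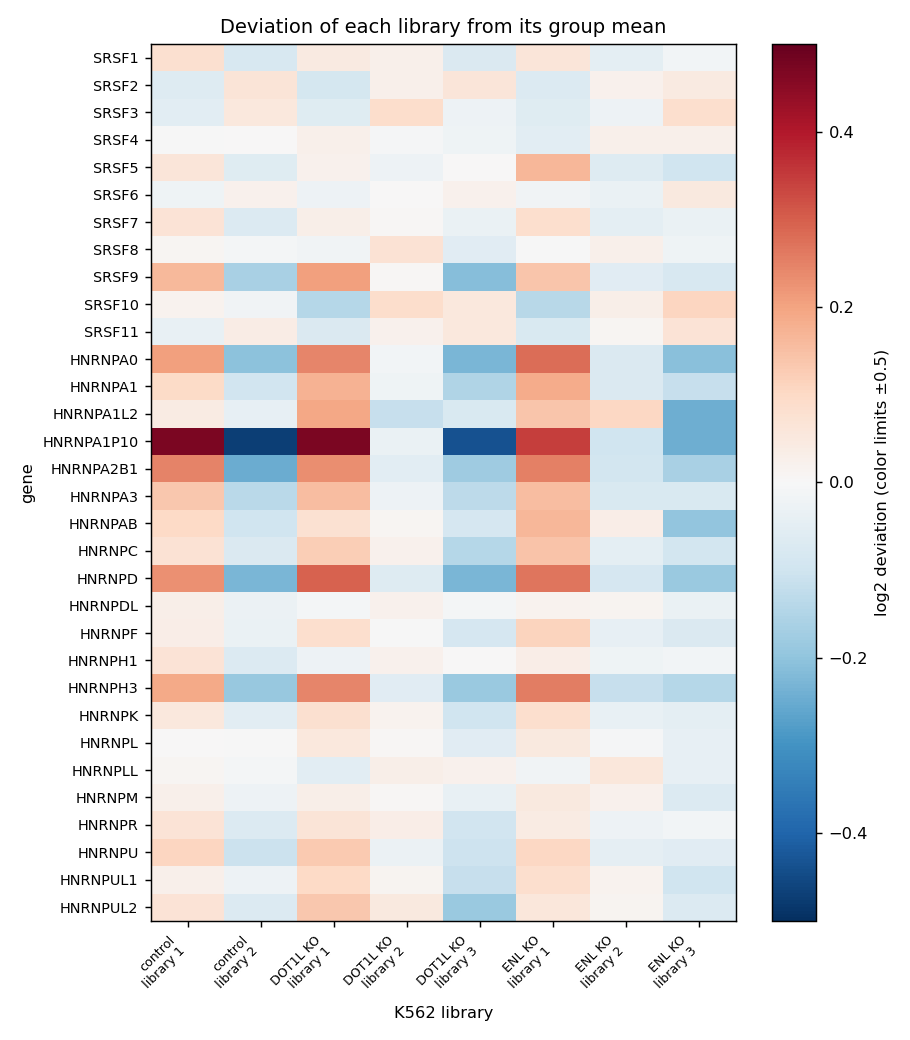
Log2 deviation of each K562 library (columns) from the mean of its group for the 32 tested genes (rows), red for higher and blue for lower, with color limits of ±0.5. The libraries numbered 1 are red for most hnRNP genes in all 3 groups, 18 of 21 being highest there, as are 4 of 11 SR proteins, among them SRSF9, while HNRNPLL stays pale.

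Without the 3 libraries numbered 1, which leaves a lone control library assumed to vary like the KO libraries, 7 members passed in the DOT1L KO beside 43% of all genes (HNRNPA0, SRSF10, SRSF6 and SRSF8 higher; HNRNPA3, HNRNPC and HNRNPLL lower) and 3 in the ENL KO beside 31.6% (SRSF8 higher, HNRNPD and HNRNPLL lower). Log2 fold changes in the DOT1L KO were then −0.65 for HNRNPLL, 0.63 for SRSF8, 0.25 for SRSF6 and −0.31 for HNRNPA3. In the ENL KO they were −0.42 for HNRNPD (edgeR adjusted p = 0.00015), −0.36 for HNRNPLL and 0.50 for SRSF8. SRSF3, HNRNPM, SRSF6 and HNRNPDL no longer passed in the ENL KO (edgeR adjusted p of 0.147, 0.126, 0.282 and 0.211). This alternative was chosen after the data were seen.

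Genes that act with these families were read from 6 lists of partners, whose median log2 fold changes lay between −0.068 and 0.055 with DOT1L KO, −0.106 and 0.057 with ENL KO and −0.098 and 0.06 under the HEL KD. Their counts are to be read beside all genes, of which 26.9% were higher and 24.2% lower with DOT1L KO, 18.8% and 22.2% with ENL KO, and 27% and 28% under the HEL KD. SR proteins are phosphorylated by the SRPK and CLK kinases and imported by transportin 3. Of 8 such genes tested in K562, 2 were higher and 3 lower in the DOT1L KO, and 1 higher and 4 lower in the ENL KO, and in HEL 2 of 7 were higher and 3 lower. SRPK1 went from 365 to 228.5 CPM on average with DOT1L KO, a log2 fold change of −0.67 ± 0.0673 (edgeR adjusted p = 2.04e-06). In the ENL KO SRPK2 fell by 0.51 and CLK3 by 0.52 on the log2 scale. CLK1 was higher in both K562 KOs (log2 fold changes 0.33 and 0.36, edgeR adjusted p of 0.029 and 0.0231) and lower in the HEL KD (−0.42 ± 0.0328, edgeR adjusted p = 6.38e-16).

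Of 15 SR-related splicing factors, 2 were lower in the DOT1L KO (PNN by 0.26 and SREK1 by 0.19 on the log2 scale), 0 passed edgeR's test in the ENL KO (1 at an unadjusted p under 0.05), and 6 were higher and 1 lower in the HEL KD, where SCAF1 (0.31), TRA2A (0.22) and ACIN1 (0.20) rose most. Other hnRNP-type RNA-binding proteins gave 3 higher and 4 lower of 17 in the DOT1L KO, 2 and 1 of 17 in the ENL KO, and 3 and 8 of 16 in the HEL KD. The cold-inducible proteins RBM3 and CIRBP were higher in both K562 KOs: RBM3 by 0.70 ± 0.0886 and 1.06 ± 0.0895 and CIRBP by 0.45 ± 0.0723 and 0.40 ± 0.0726 (largest edgeR adjusted p = 0.000646). PTBP3, a relative of the polypyrimidine tract binding protein, was lower in the DOT1L KO by −0.45 (edgeR adjusted p = 0.00264) and in the HEL KD by −0.74 (edgeR adjusted p = 3.74e-25).

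Protein arginine methyltransferases, which modify hnRNPs, had 2 higher and 2 lower of 8 with DOT1L KO, 1 and 2 with ENL KO and 2 and 2 under the HEL KD. CARM1 was lower in all 3, by −0.30, −0.49 and −0.23 on the log2 scale (edgeR adjusted p of 0.00171, 5.15e-05 and 0.00067). Early spliceosome genes had 0 higher and 6 lower of 15 in the DOT1L KO, led by SNRPC of the U1 particle (log2 fold change −0.60 ± 0.0568, edgeR adjusted p = 1.24e-06). They had 1 higher and 0 lower in the ENL KO (SF3B4, 0.42) and 5 higher and 6 lower in the HEL KD, where SF3B1, a U2 component, fell by 0.43 (edgeR adjusted p = 4.73e-19). Nonsense-mediated decay factors had 1 higher and 1 lower of 10 in each K562 KO and 1 higher and 2 lower in the HEL KD. UPF2 was higher with DOT1L KO (0.39 ± 0.0569 on the log2 scale, edgeR adjusted p = 6.48e-05) and lower in the HEL KD (−0.34 ± 0.0368, edgeR adjusted p = 1.69e-11).

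**Figure D5:**
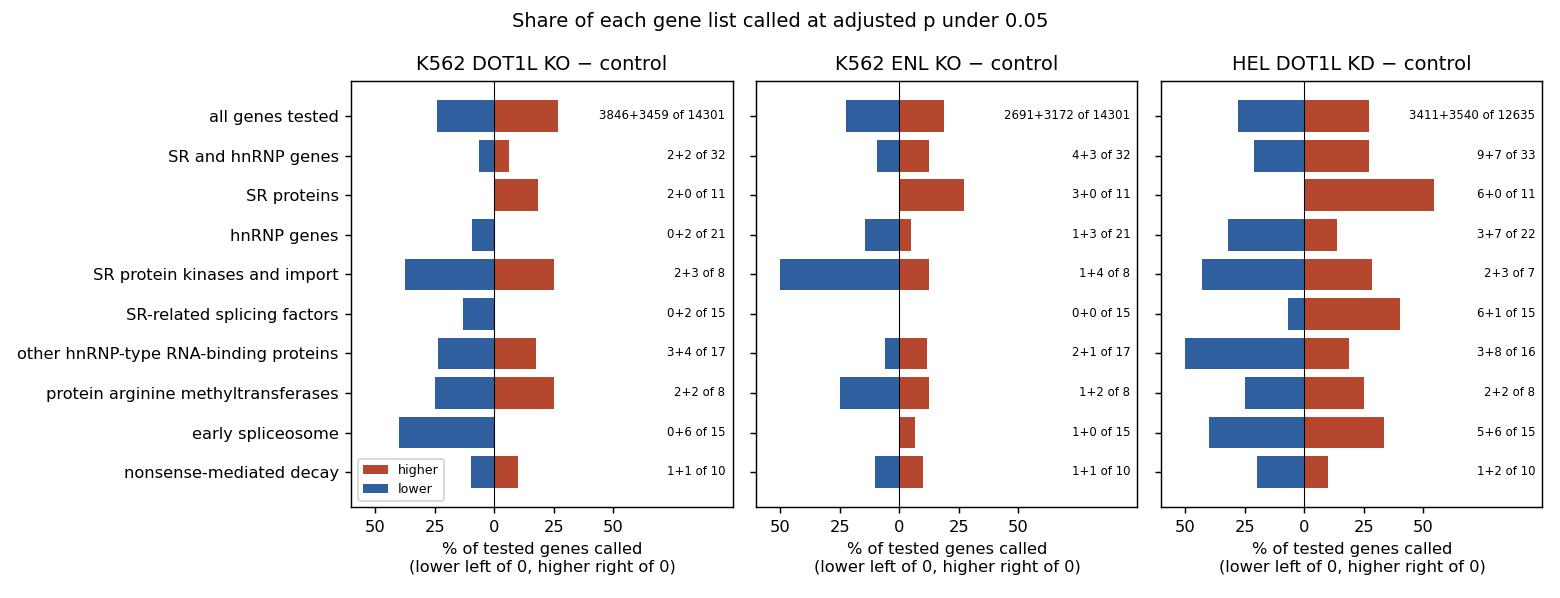
Percent of tested genes called at an edgeR adjusted p under 0.05 (x axis; lower calls to the left of 0, higher to the right) for all genes, for the SR protein and hnRNP genes and for 6 lists of partner genes, in the 3 comparisons with a control. The numbers at the right give higher plus lower calls of the genes tested, such as 2+2 of 32 for the SR and hnRNP genes in the DOT1L KO and 9+7 of 33 in the HEL KD.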

How the data were processed

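Fragment counts per gene for K562 and read counts per gene for HEL were deposited by the authors as tables of 28131 genes, per the file headers. They are raw counts. The submitters' processing notes name fastp 0.13.1, HISAT2 2.1.0 and featureCounts 1.6.1 among their tools, without a role for each, and the use of strand in counting is not given in the sources used here. Of the 74 samples, 13 RNA-seq libraries were used, and the other 61 were not analysed here.

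Genes were filtered with filterByExpr (minimum count 10, minimum total count 15) and scaled with TMM factors in edgeR 4.0.16 (R 4.3.3). Comparisons used the quasi-likelihood test of edgeR, with the 3 K562 groups in 1 fit (8 libraries), HEL in another (4 libraries) and both lines in a joint fit (9 libraries, without the ENL KO). Adjustment of p-values followed Benjamini and Hochberg (Benjamini-Hochberg) over every tested gene, with a threshold of 0.05. Standard errors were derived from the F statistic. The code was tested on simulated counts. CPM per kb divides CPM by the exonic length in the tables.

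Genes named with values in every library are, for each comparison with a control, up to 5 called members with the largest rise and up to 5 with the largest fall at a mean of at least 5 CPM, and members that passed in opposite directions in the lines. SRSF4, HNRNPC, HNRNPH1, HNRNPK and other members named in the comparison of the KOs, of the lines or of their responses were added after their values were seen. For partner lists, up to 3 called genes with the largest change were named in a comparison, and not all of these are printed. The members, lists and rules were chosen with earlier results of these data known. Alternatives were other scalings, no filter, DESeq2 1.42.0, fold thresholds, a replicate block, other sample sets and leaving out each library.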

Additional observations from a re-analysis of the deposited data

Results flagged for a closer look

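The difference between the responses of the 2 lines to DOT1L depletion, tested as the interaction in edgeR, passed for 8 members. The log2 response in HEL minus that in K562 was 1.19 for HNRNPLL (adjusted p = 2.27e-10), 0.40 for HNRNPAB (0.00107), 0.36 for SRSF5 (0.000944) and 0.29 for SRSF4 (0.0016). It was −0.62 for SRSF8 (1.46e-05), −0.33 for HNRNPR (0.00263), −0.26 for SRSF6 (0.0129) and −0.23 for HNRNPDL (0.0127). These 8 of 33 stand beside 38.9% of all genes tested. Line, KO against KD and the kind of count cannot be told apart.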

How the results depend on the processing

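None of the 39 fold changes recomputed for named and targeted genes changed sign under the alternatives run, while the split of hnRNP calls in HEL depended on scaling. Counts of members called, for the DOT1L KO (4), the ENL KO (7), the DOT1L KO against the ENL KO (7), the HEL KD (16), HEL against K562 controls (27) and the interaction (8), were 0, 0, 0, 0, 11 and 1 when a log2 change of at least 1 was also required, and 2, 1, 0, 0, 17 and 2 at 0.5. Of all genes, 15.8%, 11%, 19.2%, 5.84%, 57.2% and 12.7% passed at 1. At 0.5 the shares were 28.6%, 21%, 32.8%, 19.4%, 73.5% and 25.4%. The DOT1L KO count was 8 with no filter on low counts, 7 with all deposited columns as separate libraries, 7 with only the 2 groups compared in the fit and 7 without the K562 libraries numbered 1, a setting that gave 3 in the ENL KO. Of all genes, 37.6% passed in the DOT1L KO with no filter, 58.7% with all deposited columns and 53.3% with only the 2 groups. DESeq2 gave 4, 6, 6, 13, 24 and 8 members, beside 41.2%, 34.7%, 47.3%, 34.5%, 70.6% and 32.1% of all genes.

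Leaving out 1 library gave 3 (without control 1) to 8 (without DOT1L KO 1; 7 without control 2) for the DOT1L KO, 2 (without control 1 or ENL KO 2; 4 without control 2, 3 without ENL KO 3) to 6 for the ENL KO, 4 (without ENL KO 2) to 8 between the KOs, 11 to 15 in HEL, 24 to 28 between the lines and 6 to 11 for the interaction. Where 1 control was left, it was assumed to vary like the other groups. Of all genes, 48% passed in the DOT1L KO without DOT1L KO 1. In the ENL KO 34.9% passed without ENL KO 2 and 39.2% without ENL KO 3. Between the KOs 53.7% passed without ENL KO 2 and 56.6% without DOT1L KO 1. Without DOT1L KO 1, 87.3% passed between the lines and 43.3% for the interaction. Of 555 alternative values of the named and targeted genes, 494 stayed on their side of the threshold and 61 no longer passed.

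Same-numbered libraries deviated together with r of 0.0531 to 0.22 across genes in K562 and 0.000442 in HEL, not over 0.1 in every pair, and not every library correlated best with its own number, so the numbers were not taken as pairs. Over the members alone, r of same-numbered libraries was 0.274 to 0.923 in K562 and −0.591 in HEL. With the replicate number as a block, 13, 11, 16 and 16 members were called in the DOT1L KO, the ENL KO, between the KOs and in HEL, beside 58.3%, 49.1%, 67.2% and 54.6% of all genes.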
